A study of Mus musculus with 12 samples.

Results

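The cytosolic ribosomal protein genes encode the protein part of the cytosolic ribosome. Their 76 members here were all rows of the deposited table whose symbol is Rpl or Rps followed by a number and at most a final a or x, together with Rplp0, Rplp1, Rplp2 and Rpsa. They were 76 of the 17875 genes listed, 46 of them from the large subunit and 30 from the small subunit. The rule uses names only, no measured value. It leaves out core members that carry other names; Rps3a1, Fau and Rack1 are described separately.

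RNA was sequenced from subcutaneous tumours of mice, labelled as colorectal cancer, in 4 groups of 3 libraries. The stress group carried the tumour and was exposed to chronic stress. The low-dose and high-dose groups had both tumour and chronic stress and were given Xiao-chai-hu decoction, a traditional herbal mixture, in the smaller or the larger amount. The control group carried the tumour without stress or decoction. The labels give no strain, age, tumour line, stress procedure, amount or duration of dosing, and nothing in them says that the 3 libraries of a group came from separate mice. The p-values therefore measure the spread between these libraries, which may be technical. Of 12 colorectal epithelial markers, 11 were in the table, and 8 of those, Epcam, Krt8, Krt18 and Krt20 among them, stayed under 1 CPM, that is counts scaled to the total of the library, in every library, so the labelled tissue could not be checked by its defining epithelial genes. Sox9 was present at 101 to 216 CPM. The libraries held 16734741 to 17950195 estimated counts each.

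These proteins are bound to ribosomal RNA in a small subunit that reads the mRNA and a large subunit that joins amino acids. Their mRNAs are among the most abundant of a growing cell and carry a 5′-terminal oligopyrimidine (TOP) tract, a cytosine followed by further pyrimidines, through which the kinase mTOR controls their translation. In tumours their expression is known to follow growth signalling and the transcription factor Myc.

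Before the comparisons, 1 library has to be named: low-dose replicate 2 stood apart from the other 11. The genes were centred on their own mean log2 CPM over the 12 libraries, and the mean of the 76 centred values served as the score of a library. The score was -0.13, -0.05 and -0.06 in the stress tumours, -0.08, 0.64 and 0.24 in the low-dose tumours, -0.13, -0.07 and -0.07 in the high-dose tumours and -0.13, -0.14 and -0.02 in the control tumours. Low-dose replicate 2 was the highest library, low-dose replicate 3 was second, and low-dose replicate 1 lay among the other groups. On the log2(TPM + 1) scale low-dose replicates 2 and 3 were again the highest libraries, with lower scores of 0.31 and 0.09. In low-dose replicate 2 all 76 genes lay above their own mean and in low-dose replicate 3 there were 74, against 0 to 31 of 76 in the other 10 libraries. In the same 2 libraries the counts of other genes leaned towards short transcripts. Pearson's r across 11682 other genes between transcript length on the log2 scale and the centred value was -0.319 in low-dose replicate 2 and -0.118 in low-dose replicate 3, and -0.02 to 0.187 in the other 10 libraries. With the gene length implied by the deposited counts and FPKM it was -0.553 in low-dose replicate 2, -0.189 in low-dose replicate 3 and -0.064 to 0.338 in the others, over 11776 genes. Genes of a library are not independent replicates. Ribosomal protein mRNAs are short. The values of the set with this trend removed are given with low dose against stress. More cells with abundant ribosomal mRNA and more such mRNA per cell cannot be told apart in these bulk samples.

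**Figure D1:**
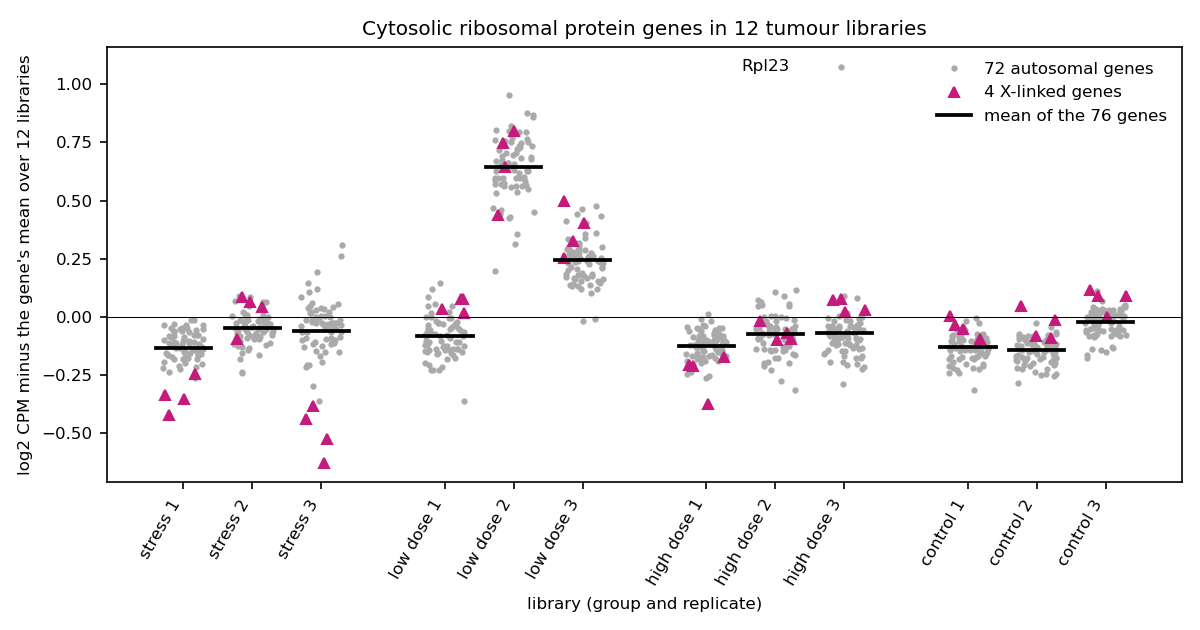
Log2 CPM of each of the 76 genes minus the gene's mean over the 12 libraries (y axis) in each library (x axis); grey points are the 72 autosomal genes, triangles the 4 X-linked genes and bars the mean of the 76. The bar of low-dose replicate 2 stands at 0.64 and that of low-dose replicate 3 at 0.24, while the bars of the other libraries lie between -0.14 and -0.02.

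The 76 genes were abundant and spanned a wide range of levels. Mean TPM, a level corrected for gene length and set to 1 fixed total per library, over the 12 libraries lay between 79.0 for Rps6 and 7958 for Rpl23a, with a median of 2613 over the genes, while the median gene of the whole table had 10.6 TPM. The mean exceeded 1000 TPM for 68 of the 76. The small-subunit genes had a median of 3292 TPM and the large-subunit genes 2530 TPM. Among the highest were Rpl23a, a protein at the exit of the peptide tunnel where the signal recognition particle docks, Rps2 at the mRNA entry of the small subunit, Rps27 and Rpl35. Rpl23a had 8087, 8175 and 8287 TPM in the stress tumours, 7895, 8397 and 8065 TPM in the low-dose tumours, 7698, 7609 and 7548 TPM in the high-dose tumours and 8084, 7702 and 7954 TPM in the control tumours. Rps2 had 6284, 5734 and 7659 TPM in the stress tumours, 5314, 7969.6 and 8193 TPM in the low-dose tumours, 6247, 7055 and 5914 TPM in the high-dose tumours and 6421, 6437 and 6230.4 TPM in the control tumours. By TPM Rpl23a was nearly level over the 12 libraries. By centred log2 CPM Rpl23a was highest in low-dose replicates 2 and 3, at 0.42 and 0.18. Rps2 was high in stress replicate 3 and in low-dose replicates 2 and 3, so that its groups overlapped. Rps27 and Rpl35 lay between 4013 and 6229 TPM in every library.

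The 5 lowest by TPM were Rps6, Rps15a, Rps20, Rpl22 and Rpl15. Rps6 had 80.0, 80.5 and 62.4 TPM in the stress tumours, 77.6, 94.3 and 88.9 TPM in the low-dose tumours, 71.5, 72.8 and 88.0 TPM in the high-dose tumours and 79.9, 71.5 and 80.8 TPM in the control tumours. Rps6, the substrate of the S6 kinases and a standard readout of mTOR activity, was low in counts too, with a mean of 879.9 against 3026 for the next lowest member, Rpl38. The others were low by TPM and not by counts. The deposited estimated counts divided by the deposited FPKM, which stand for the gene length the authors applied, were 10.8, 7.05, 4.29 and 3.51 times the median of the members for Rps15a, Rps20, Rpl22 and Rpl15, so these levels rest on the lengths used. High levels rest on them as well. This ratio was 0.63 for Rpl23a, 1.61 for Rps2, 0.19 for Rps27, 0.40 for Rpl35 and 0.15 for Rpl38. Rps27 had a mean count of 4354, below the 6287 of Rps15a. Over the 12 libraries Rps15a lay at 114 to 179 TPM, Rps20 at 199 to 277 TPM, Rpl22 at 343 to 469 TPM and Rpl15 at 692 to 897 TPM. Many ribosomal protein genes also have near-identical processed copies elsewhere in the genome, and how reads matching several places were counted is not given in the sources used here, which leaves the level of each gene uncertain.

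**Figure D2:**
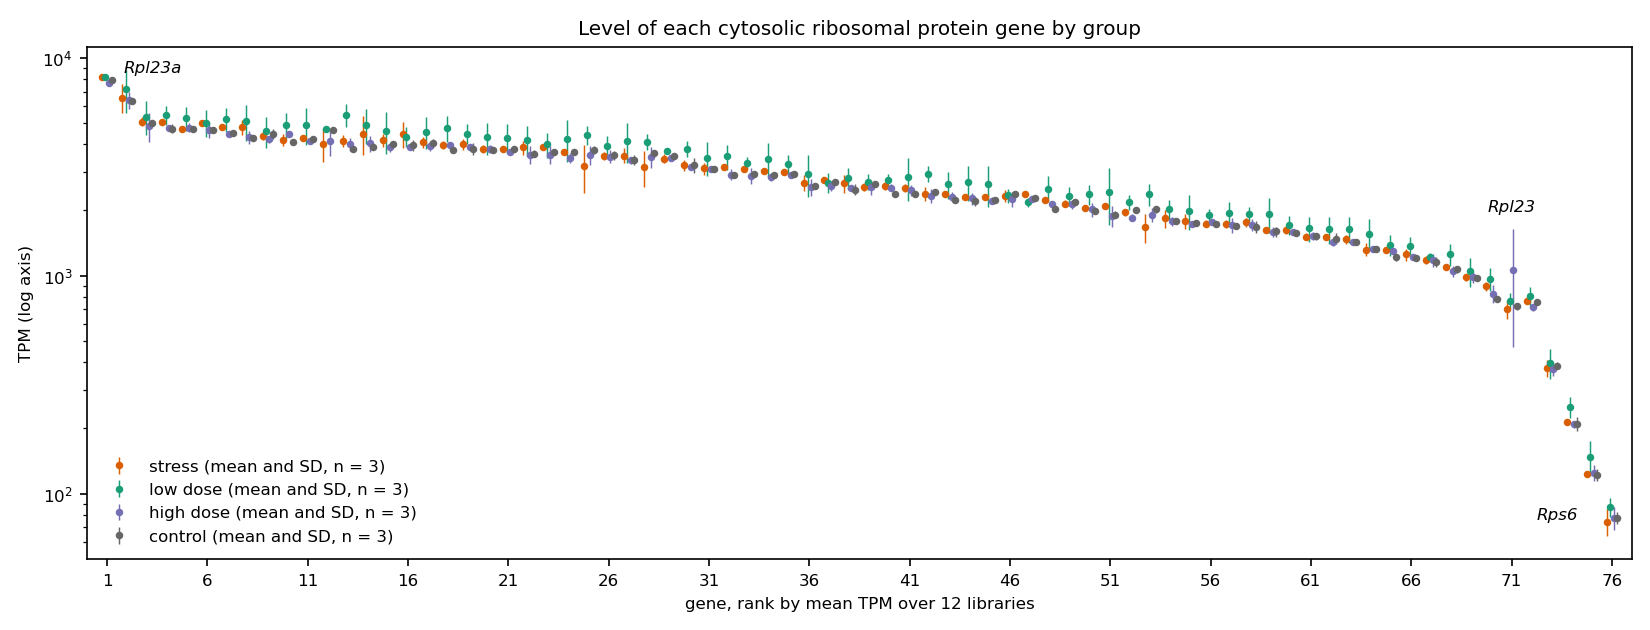
Mean TPM and SD of 3 libraries (y axis, log scale) for each of the 76 genes (x axis, rank by the mean over 12 libraries), with the stress, low-dose, high-dose and control groups side by side. The means of 68 genes lie above 1000 TPM, Rps6 is lowest at 79.0 TPM, and Rpl23 has a wide SD in the high-dose group.

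The starts of the genes are shown because the TOP tract is the feature by which they are known to be controlled together. Promoter sequences from RefSeq, build GRCm38.p6, were matched by gene identifier for 56 of the 76. The first listed start of each gene was used. A run of at least 8 pyrimidines on the gene's strand within 20 bases of the annotated start was present in 26 of the 56 (46.4%), against 15.9% of all 27025 promoters. The sequence CCGGAAG, bound by ETS family factors, was present on either strand of the 300 bases around the start in 22 of the 56 (39.3%), against 9.1% of all promoters. Shown are 20 bases before and 20 bases from the start for Rps6, Rpl15 and Rpl22, which are among the lowest by TPM, for Rpl35, Rpl38 and Rps27, which are among the highest, for Rplp2 of the P-stalk, for Rpl23, and for the 4 X-linked members, all of which the results describe. They are examples and do not stand for the shares above. Capitals mark the longest pyrimidine run where it has at least 6 bases, and each such run where several share that length.
Rps6 (chr4:86857348-86857387, minus strand): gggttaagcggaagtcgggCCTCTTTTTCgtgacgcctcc
Rpl15 (chr14:18270967-18271006, minus strand): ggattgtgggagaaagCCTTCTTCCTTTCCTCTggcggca
Rpl22 (chr4:152325706-152325745, plus strand): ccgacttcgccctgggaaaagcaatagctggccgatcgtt
Rpl35 (chr2:39005112-39005151, minus strand): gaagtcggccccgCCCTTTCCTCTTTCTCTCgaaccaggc
Rpl38 (chr11:114668560-114668599, plus strand): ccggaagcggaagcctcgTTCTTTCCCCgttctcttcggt
Rps27 (chr3:90213629-90213668, minus strand): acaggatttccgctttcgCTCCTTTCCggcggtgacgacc
Rplp2 (chr7:141447631-141447670, plus strand): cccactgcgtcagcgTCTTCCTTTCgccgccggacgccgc
Rpl23 (chr11:97782420-97782459, minus strand): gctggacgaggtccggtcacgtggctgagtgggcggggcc
Rpl36a (chrX:134585634-134585673, plus strand): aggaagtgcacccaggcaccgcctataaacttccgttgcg
Rpl39 (chrX:37085203-37085242, minus strand): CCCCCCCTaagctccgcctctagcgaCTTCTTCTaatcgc
Rpl10 (chrX:74270796-74270835, plus strand): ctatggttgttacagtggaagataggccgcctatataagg
Rps4x (chrX:102189372-102189411, minus strand): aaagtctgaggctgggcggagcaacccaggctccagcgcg
Rps6, Rpl15, Rpl35, Rpl38, Rps27 and Rplp2 had a pyrimidine run of 9 to 18 bases across the annotated start. Rpl22, Rpl23, Rpl36a, Rpl10 and Rps4x had none of 6 or more in this window. The windows of Rpl22 and Rpl38 lie inside the annotated genes, which begin at chr4:152324436 and chr11:114667818. Other starts were not examined. Rpl39 had a run of 8 bases before the start and another of 8 bases after it. A match describes the letters of these windows only. The median log2 fold change of low dose over stress was 0.39 in the 26 with it and 0.35 in the 30 without it.

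Stress against control asked whether chronic stress altered these genes in the tumour, and the values of the set lay near 0. The median log2 fold change over the 76 was 0.03, against 0.0059 over all 13453 genes tested, with single genes between -0.29 and 0.19. Unless another method is named, log2 fold changes are edgeR values from counts. They can differ from ratios of the TPM values printed beside them. Values above 0 were found for 50 of 76 (65.8%), against 51.7% of all genes, for 56 of 76 with upper-quartile scaling (54.7% of all genes) and for 58 of 76 on the log2(TPM + 1) scale (49.8%). None of the 76 passed an adjusted p of 0.05 in edgeR's quasi-likelihood test, as 0% of all genes did. At an unadjusted p under 0.05, edgeR found 0 members higher (1.1% of all genes) and 0 lower (1.75%). DESeq2 and limma on log2(TPM + 1) also gave 0 adjusted calls among the members (DESeq2 called 0.00743% of all genes, lower, and limma 0%), as did limma-voom with quality weights, which had 4 members lower at an unadjusted p under 0.05 (5.75% of all genes). The whole set took 20.98%, 21.60% and 21.56% of all TPM in the stress tumours, against 20.85%, 20.51% and 21.21% in the control tumours.

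The members furthest below 0 in that comparison were the 4 X-linked ones. Rpl36a, whose yeast counterpart sits at the tRNA exit site, had 1686, 1917 and 1410.2 TPM in the stress tumours, against 2008, 1945 and 2082 TPM in the control tumours. All 3 stress values lay below all 3 control values, with a log2 fold change of -0.29 (SE 0.17) and an adjusted p of 0.9999 by edgeR. Rpl39, a very short protein that lines the peptide exit tunnel, had 3023, 4035 and 2476 TPM in the stress tumours, against 3668, 3696 and 3970.0 TPM in the control tumours. By TPM its stress replicates 1 and 3 were low and stress replicate 2 was above every control library. By centred log2 CPM stress replicate 2, at 0.06, lay below control replicate 3, at 0.12. The log2 fold change of Rpl39 was -0.28 (SE 0.20). Rps4x, a small-subunit protein that in humans also has a copy on the Y chromosome, had 2935, 3797 and 2693 TPM in the stress tumours, against 3669, 3687 and 3593 TPM in the control tumours, and a log2 fold change of -0.22 (SE 0.17). Rpl10, which joins the large subunit late in its maturation, had 3877, 4769 and 3418 TPM in the stress tumours, against 4594, 4696 and 4658 TPM in the control tumours, and a log2 fold change of -0.22 (SE 0.15). Among the stress and control libraries, stress replicates 1 and 3 were the lowest for each of these 4 genes. None of the 4 passed the test by edgeR.

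The other X-linked genes of the same libraries lay low as well, a pattern noticed in the data and given as a description. The mean centred value of the 4 X-linked members minus that of the 72 autosomal members was -0.22, 0.08 and -0.46 in the stress tumours, 0.14, 0.01 and 0.13 in the low-dose tumours, -0.12, 0.002 and 0.12 in the high-dose tumours and 0.09, 0.11 and 0.10 in the control tumours. The same difference between the medians of other X-linked and other autosomal genes, over 370 X-linked genes with a mean log2 CPM above 1, was -0.21, 0.08 and -0.35 in the stress tumours, 0.11, -0.16 and 0.07 in the low-dose tumours, -0.06, 0.04 and 0.13 in the high-dose tumours and 0.09, 0.16 and 0.07 in the control tumours. Stress replicates 3 and 1 were the lowest of the 12 libraries on both measures, and low-dose replicate 2 was low for the other genes and not for the members. Of 425 other X-linked genes tested, 353 had a lower value in stress than in control, with a median log2 fold change of -0.24 and none past the adjusted threshold. The part of this shift of the whole chromosome in the values of the 4 members was not tested.

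**Figure D3:**
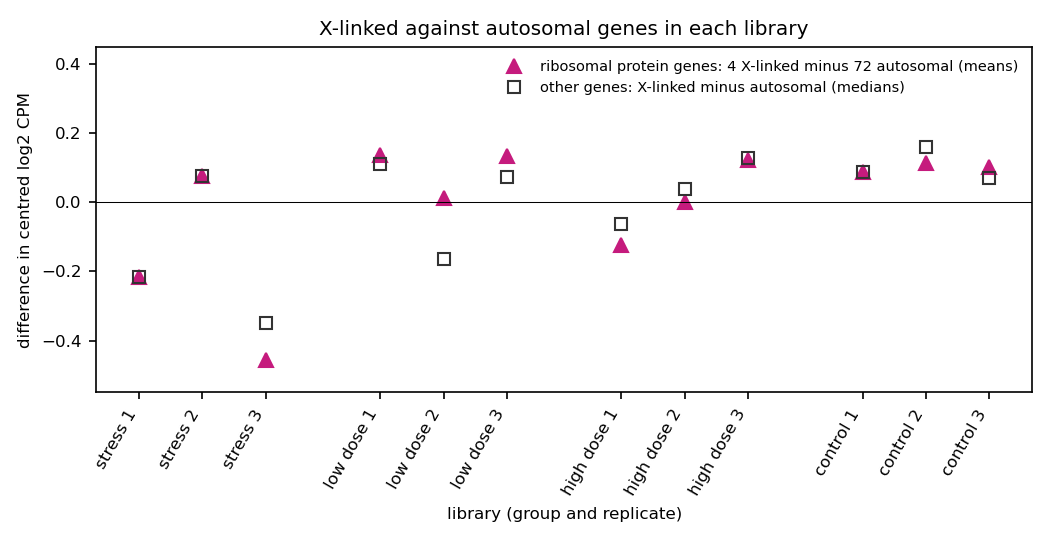
Difference in centred log2 CPM between X-linked and autosomal genes (y axis) in each library (x axis); triangles compare the 4 X-linked with the 72 autosomal ribosomal protein genes by means, squares compare the other genes by medians. Stress replicate 3 lies lowest on both, at -0.46 and -0.35, followed by stress replicate 1 at -0.22 and -0.21.

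The autosomal members furthest above 0 in stress over control were Rpl21, Rpl41, Rps12 and Rps26, at 0.19, 0.17, 0.15 and 0.14 on the log2 scale. Rpl41 had 4154, 3808 and 5510.2 TPM in the stress tumours, 3979, 5740.0 and 5052 TPM in the low-dose tumours, 4282, 4206 and 3641 TPM in the high-dose tumours and 3969.6, 3964 and 3808 TPM in the control tumours. Rpl41, among the shortest proteins of the cell, was high in stress replicate 3 and in low-dose replicates 2 and 3, and without stress replicate 3 its log2 fold change of stress over control was -0.02. Rpl21 had 859.9, 943 and 877 TPM in the stress tumours, against 777, 781 and 794 TPM in the control tumours, with no overlap and a log2 fold change of 0.19 (SE 0.13). All 3 stress libraries lay above all 3 control libraries by CPM for 5 members (6.58%), against 7.08% of all genes, and below them for 1 member, Rpl36a (1.32%), against 7.02% of all genes.

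Low dose against stress asked what the decoction did under stress, and here the whole set lay higher while no gene passed the test by edgeR. The log2 fold change of low dose over stress was above 0 for 76 of 76 members, against 49.9% of all genes, with a median of 0.37 (1.2955-fold) against -0.00042 over all genes and a range from 0.08 to 0.76, highest for Rpl36a. The median SE of a single gene was 0.16. The large-subunit genes had a median of 0.36 and the small-subunit genes 0.39. None of the 76 reached an adjusted p of 0.05 by edgeR, as 0% of all genes did; the smallest adjusted p was 0.266, for Rpl36a. At an unadjusted p under 0.05 there were 52 members higher (68.4%), against 6.8% of all genes, and 0 lower (6.55%). The set took 21.13%, 26.90% and 23.06% of all TPM in the low-dose tumours, against 20.98%, 21.60% and 21.56% in the stress tumours, so that low-dose replicate 1 lay within the stress range. All 3 low-dose libraries exceeded all 3 stress libraries by CPM in 16 members (21.1%), against 5.37% of all genes.

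These counts rested on which low-dose libraries were used. DESeq2 called 4 members higher, Rpl36a, Rpl39, Rps14 and Rpl17, against 0.409% of all genes, while limma-voom and limma on log2(TPM + 1) called 0 members and 0% of all genes, with 57 and 9 members higher at an unadjusted p under 0.05 (6.01% and 1.75% of all genes). Without low-dose replicate 1, edgeR called 57 of 76 higher, against 4.66% of all genes, and the median was 0.53. Without low-dose replicate 2, 0 were called (0% of all genes), the median was 0.17, 75 of 76 were above 0 (50% of all genes) and 11 had an unadjusted p under 0.05 (5.01% of all genes higher). With only the 6 libraries of these groups in the model, 13 members had an unadjusted p under 0.05 (3.26% of all genes higher). When each library's trend with transcript length was removed, using the length implied by the deposited counts and FPKM, the median was 0.07, with 58 members above 0 (50.6% of all genes) and 18 below. With length and GC content from the gene annotation it was 0.26, with 75 above 0 (51.5% of all genes). On the log2(TPM + 1) scale it was 0.14 against -0.15 for all genes, a distance of 0.28, with 72 members above 0 (25.1% of all genes).

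The P-stalk proteins Rplp0, Rplp1 and Rplp2 form the flexible arm of the large subunit that recruits translation factors. Rplp1 had 3460.3, 5104 and 3841 TPM in the low-dose tumours, against 3492, 3308 and 3859 TPM in the stress tumours. By TPM low-dose replicate 2 was high and the other low-dose libraries overlapped the stress range. By centred log2 CPM low-dose replicate 3, at 0.271, also lay above the highest stress library, at 0.055. The log2 fold change, fitted to counts and not to TPM, was 0.50 (SE 0.19) with an adjusted p of 0.325 by edgeR. Rplp2 had 3622, 5078 and 4231 TPM in the low-dose tumours, against 3670.3, 3781 and 3979 TPM in the stress tumours, and a log2 fold change of 0.46 (SE 0.18). Rplp0, the base of the stalk and a common reference gene, had 2478, 3106 and 2847 TPM in the low-dose tumours, against 2481, 2536 and 2947 TPM in the stress tumours, and a log2 fold change of 0.27 (SE 0.15). Rpsa, a small-subunit protein also known as the laminin receptor, had 1610.1, 2334 and 1976 TPM in the low-dose tumours, against 1749.8, 1651 and 1938 TPM in the stress tumours, and a log2 fold change of 0.34 (SE 0.18). In all 4 genes low-dose replicate 2 was the highest of the 12 libraries and the groups overlapped.

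**Figure D4:**
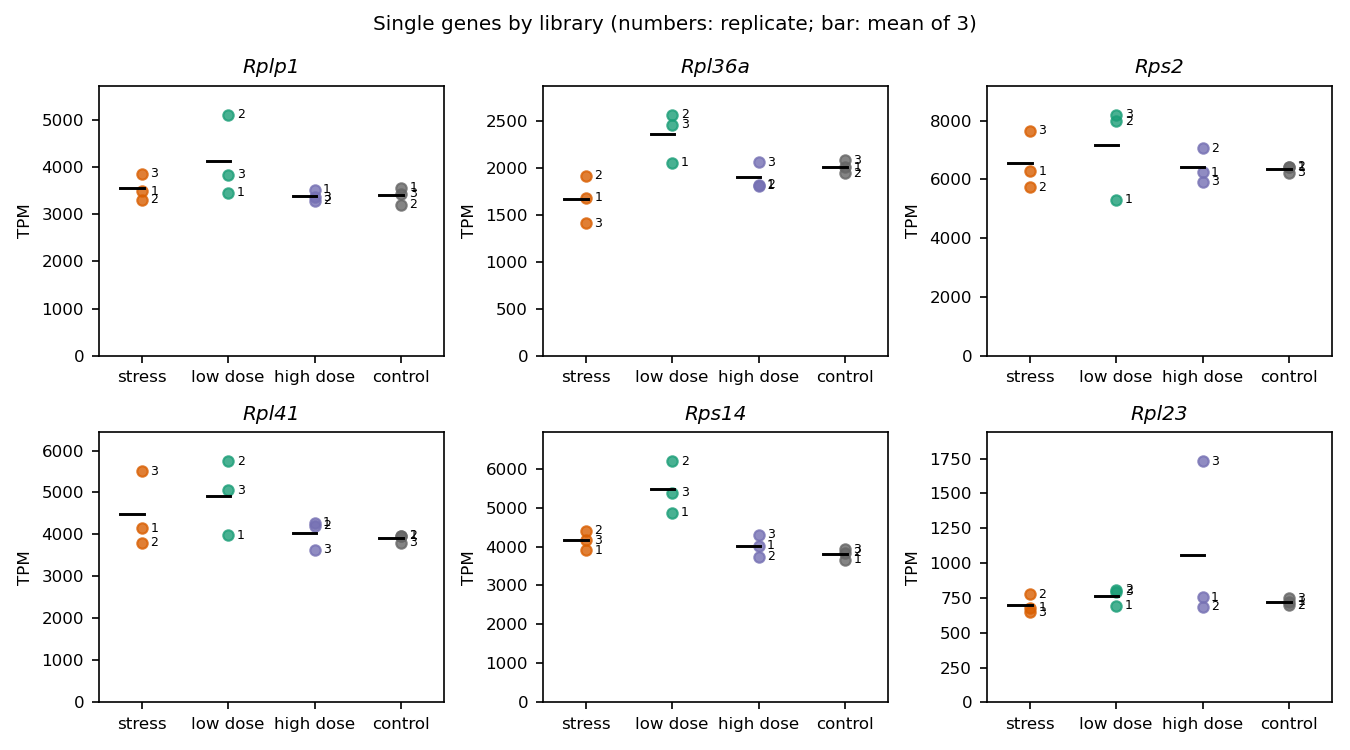
TPM (y axis, from 0) of 6 genes in the stress, low-dose, high-dose and control tumours (x axis); points are libraries with their replicate number, bars are means of 3. Low-dose replicate 2 is highest for Rplp1, Rpl36a and Rpl41, Rps2 is high also in low-dose replicate 3, the 3 low-dose values of Rps14 lie above the 3 stress values, and Rpl23 stands at 1729 TPM in high-dose replicate 3.

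The 5 members with the largest values in low dose over stress were Rpl36a, Rpl39, Rps14, Rps4x and Rpl38. Rpl36a had 2057, 2567 and 2464 TPM in the low-dose tumours, against 1686, 1917 and 1410.2 TPM in the stress tumours, with no overlap, and a log2 fold change of 0.76 (SE 0.17). Rpl39 had 4031, 4930.3 and 4308 TPM in the low-dose tumours, against 3023, 4035 and 2476 TPM in the stress tumours. By TPM stress replicate 2 reached the lowest low-dose value, by CPM the groups did not overlap, and the log2 fold change was 0.76 (SE 0.20). Rps4x had 3804, 4510.4 and 4051 TPM in the low-dose tumours, against 2935, 3797 and 2693 TPM in the stress tumours, and a log2 fold change of 0.59 (SE 0.17). These 3 are X-linked, and the low X-linked values of stress replicates 1 and 3 stand beside them; without low-dose replicate 2 their log2 fold changes were 0.59 for Rpl36a, 0.56 for Rpl39 and 0.43 for Rps4x.

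Rps14, a protein of the small-subunit platform whose loss marks the human 5q- syndrome, had 4865, 6183 and 5374 TPM in the low-dose tumours, against 3909, 4405 and 4158 TPM in the stress tumours. The groups did not overlap, low-dose replicate 1 included, and the log2 fold change was 0.63 (SE 0.16) with an adjusted p of 0.296 by edgeR. Rpl17, which lies at the exit tunnel, had 2699, 3195 and 2892 TPM in the low-dose tumours, against 2354, 2558 and 2216 TPM in the stress tumours, and a log2 fold change of 0.51 (SE 0.14). Both genes lie on chromosome 18, where 352 other genes tested had a median of 0.10 in this comparison and 233 of them lay above 0. Rpl38, known in mice for its effect on translation of Hox mRNAs, had 4139.5, 5455 and 5099 TPM in the low-dose tumours, against 4457, 4212 and 3938 TPM in the stress tumours, and a log2 fold change of 0.58 (SE 0.17). By TPM its low-dose replicate 1 lay within the stress range.

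Rpl4, Rpl3, Rpl23a and Rps26 were among the members with the smallest values. Rpl4 and Rpl3, large proteins of the tunnel wall and of the peptidyl transferase centre, had log2 fold changes of 0.16 (SE 0.14) and 0.19 (SE 0.13). Rpl23a had 0.22 (SE 0.12) and Rps26, which lies at the mRNA exit of the small subunit, 0.23 (SE 0.16). With the implied length trend removed, or on the TPM scale, Rpl4, Rpl23a and Rps26 turned below 0, and Rpl3 did not.

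**Figure D5:**
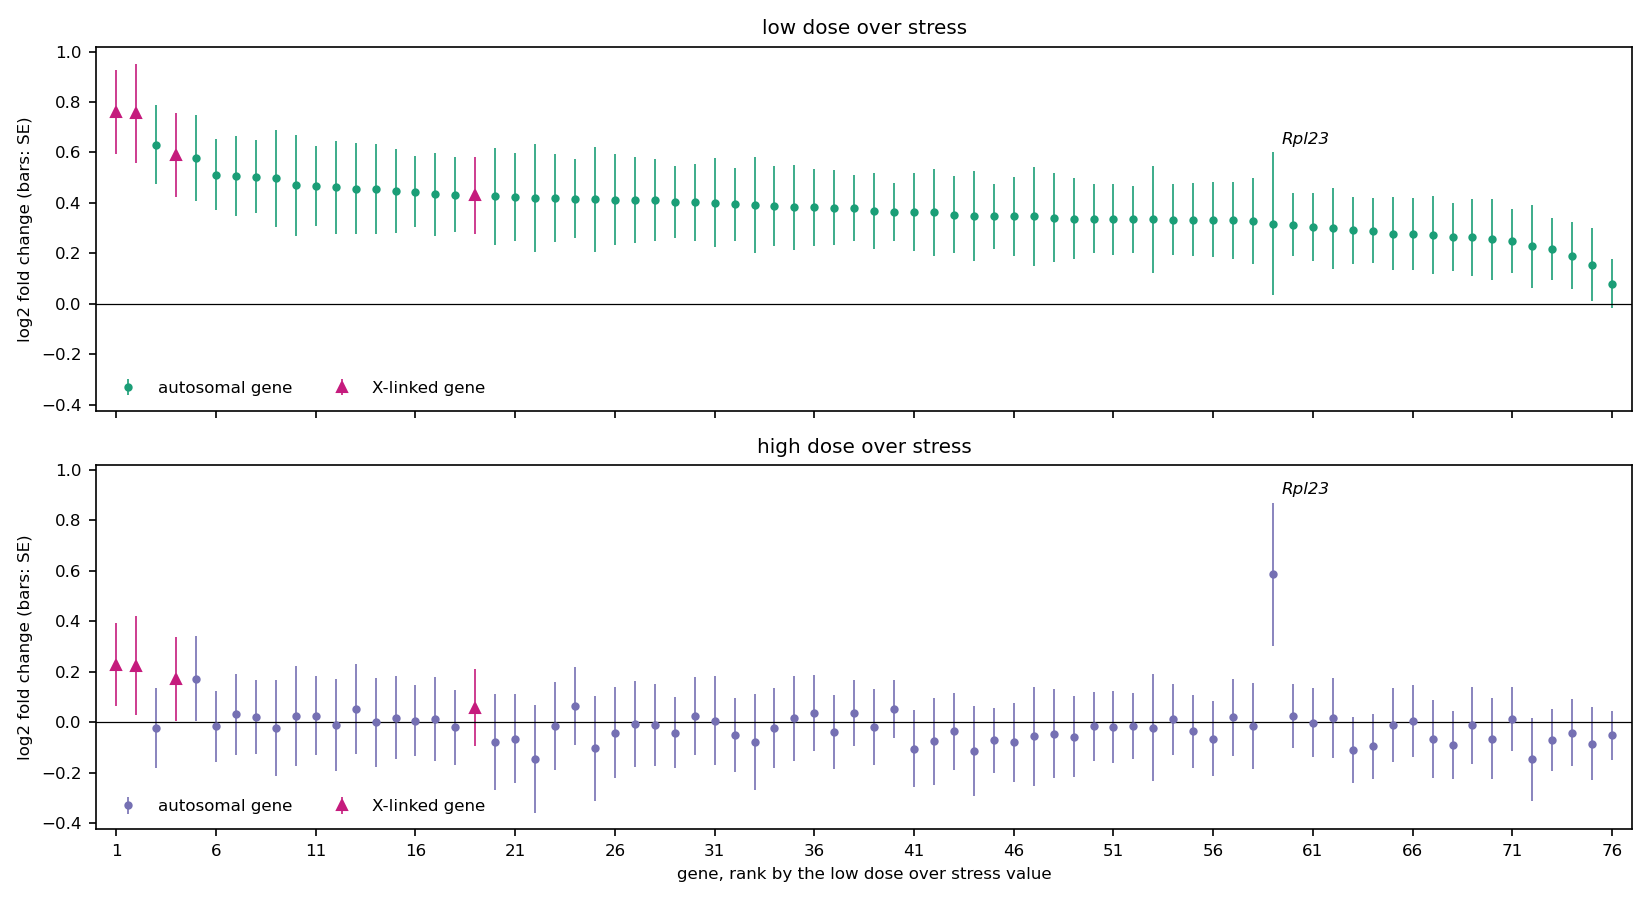
Log2 fold change with SE (y axis) of low dose over stress (upper panel) and of high dose over stress (lower panel) for each of the 76 genes (x axis, rank in the upper panel); triangles are X-linked genes. All 76 points of the upper panel lie above 0, between 0.08 and 0.76, while those of the lower panel scatter around 0 apart from Rpl23 at 0.59.

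Members with known roles were part of the 76, all above 0 in low dose over stress with a median of 0.37, and their medians lay close to that of the set. The 10 ribosomal proteins known to bind the p53 regulator Mdm2 had a median of 0.40. Rpl5 and Rpl11, which hold Mdm2 together with 5S ribosomal RNA, had log2 fold changes of 0.39 (SE 0.16) and 0.33 (SE 0.14). The 17 genes mutated in human Diamond-Blackfan anaemia had a median of 0.38; Rps19, the one most often mutated, had 3875, 5764 and 4217 TPM in the low-dose tumours, against 4063, 4529 and 3991 TPM in the stress tumours, and a log2 fold change of 0.39 (SE 0.19). The 9 genes of the exit tunnel had a median of 0.38. Rps27a, made as a fusion with ubiquitin, had 0.37 (SE 0.15), Rps6 0.42 (SE 0.16), and Rpl22, which has a paralogue in Rpl22l1, 0.26 (SE 0.15). No member of these lists passed by edgeR; the calls by DESeq2 for Rps14, Rpl39 and Rpl17, which the lists hold, are given above.

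High dose against stress gave values near 0. The median log2 fold change over the 76 was -0.02, against -0.0038 over all genes, with 27 above 0 (48.9% of all genes above 0) and 49 below (51.1%); on the log2(TPM + 1) scale 15 were above (48.4% of all genes) and 61 below, and with the implied length trend removed 11 were above (50.9%). Without stress replicate 3 the median was 0.006. None of the 76 passed by edgeR, as 0% of all genes did, and none had an unadjusted p under 0.05 in either direction, against 0.825% of all genes higher and 0.595% lower. DESeq2, limma-voom and limma on log2(TPM + 1) also gave 0 adjusted calls, among the members and among all genes (0%). The set took 20.58%, 20.39% and 21.20% of all TPM in the high-dose tumours. The 4 X-linked members lay above 0, at 0.23 for Rpl36a, 0.22 for Rpl39, 0.17 for Rps4x and 0.06 for Rpl10, and 354 of the 425 other X-linked genes did too. The stress libraries are shared with the other comparisons, so the X-linked values are not separate evidence. Rpl38 was at 0.17. Among the members furthest below 0 were Rps26 at -0.15, Rps12 at -0.12, Rpl21 at -0.11 and Rpl13a at -0.11. All 3 high-dose libraries lay above all 3 stress libraries by CPM for 2 members, Rpl38 among them, against 2.43% of all genes, and below them for 3, Rpl15, Rps7 and Rps25, against 3.32%.

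The value that stood out was Rpl23, a large-subunit protein at the interface with the small subunit. Rpl23 had 681, 777 and 648 TPM in the stress tumours, 692, 809.5 and 793 TPM in the low-dose tumours, 755, 685 and 1729 TPM in the high-dose tumours and 722, 696 and 748 TPM in the control tumours. High-dose replicate 3 stood alone at 1729 TPM, and the other 11 libraries lay between 648.5 and 809.5 TPM with overlapping groups. The log2 fold change of high dose over stress was 0.59 (SE 0.28), and 0.06 without that library. Of the expressed genes within 300 kb of Rpl23 on chromosome 11, 11 had centred values between -0.30 and 0.05 in that library, where Rpl23 had 1.07.

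High dose against low dose used the same 3 low-dose libraries and is no separate evidence for them. The log2 fold change was below 0 for 75 of 76 members, against 49.2% of all genes, with Rpl23 the exception, and the median was -0.40 against 0.0042 over all genes. None passed by edgeR, as 0% of all genes did, and the smallest adjusted p was 0.758. At an unadjusted p under 0.05 there were 62 lower (3.64% of all genes) and 0 higher (2.75%), and DESeq2 gave 0 adjusted calls (0.0223% of all genes higher and 0.0149% lower) and 66 lower at an unadjusted p under 0.05 (4.1%). Limma-voom and limma on log2(TPM + 1) gave 0 adjusted calls too, as for 0% of all genes. All 3 high-dose libraries lay below all 3 low-dose libraries by CPM in 22 members (28.9%), against 3.18% of all genes. The furthest below 0 was Rps14, with 4018, 3737 and 4302 TPM in the high-dose tumours, against 4865, 6183 and 5374 TPM in the low-dose tumours, and a log2 fold change of -0.65 (SE 0.16); Rpl36a, Rpl39 and Rpl17 were at -0.53, -0.53 and -0.53. Among the values nearest to 0 were those of Rpl3 at -0.23, Rpl27 at -0.24 and Rpl4 at -0.24. Without low-dose replicate 1, 14 members were called lower (0.44% of all genes), and without low-dose replicate 2, 0 were called (0% of all genes) and the median was -0.18.

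The members varied together over the 12 libraries, with low-dose replicates 2 and 3 far from the rest. The scores of these 2 libraries were 0.64 and 0.24, and those of the others lay between -0.14 and -0.02. The correlations below therefore rest largely on these 2 libraries, and values without them are not given. Over the 12 libraries, Pearson's r between a member and the mean of the other 75 had a median of 0.962, and 61 of 76 exceeded 0.9; the libraries share their depth and scaling, so the values are a description. Low-dose replicate 2 was the library with the highest TPM for 69 of the 76. The 5 members least like the others were Rpl23 (r = 0.346), Rpl10 (0.708), Rpl39 (0.812), Rps2 (0.813) and Rps4x (0.829), of which 3 are X-linked. By the SD of the distance from the mean of the others, the most variable were Rpl23, Rpl39, Rpl36a, Rpl10 and Rpl41, with 0.38, 0.22, 0.19, 0.18 and 0.17 on the log2 scale, against a median of 0.07. Spearman's rho between transcript length and the log2 fold change of low dose over stress was -0.27 over the 76 members, given as a description.

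Core members with other names lay higher too. Rack1, a scaffold on the small subunit, had 2194, 3282 and 2512 TPM in the low-dose tumours, against 2297, 2443 and 2311 TPM in the stress tumours, and a log2 fold change of 0.38 (SE 0.18). Fau, a fusion of a ubiquitin-like domain with ribosomal protein S30, had 2519.7, 3917 and 2934 TPM in the low-dose tumours, against 2739, 3021 and 2696 TPM in the stress tumours, and a log2 fold change of 0.42 (SE 0.20). Rps3a1 had a log2 fold change of 0.27 (SE 0.12). Low-dose replicate 2 was the highest library for Rack1, Fau and Rps3a1. The table holds 7 paralogues, of which those tested were Rps27l at 0.43 (SE 0.13), Rpl22l1 at 0.40 (SE 0.18), Rpl36al at 0.35 (SE 0.14) and Rpl7l1 at 0.09 (SE 0.11); Rpl3l, known from striated muscle, Rpl39l and Rps27rt stayed at or under 7.38 TPM in every library. None of the genes tested here passed by edgeR.

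Other parts of the translation machinery gave smaller values, again with none past the adjusted threshold by edgeR, in this comparison or in the other 3. In low dose over stress 49.9% of all genes lay above 0. The length trend of low-dose replicates 2 and 3 was not removed from the values of these lists. Its part in the differences between the lists was not tested. Of the 78 mitochondrial ribosomal protein genes, which build the separate ribosome of the organelle, 76 lay above 0 in low dose over stress, with a median of 0.22, and 65 had their highest CPM in low-dose replicate 2; Mrps25 had 0.54 (SE 0.14) and Mrpl36 0.53 (SE 0.14). Of 14 elongation factors and other TOP mRNAs, 13 lay above 0, with a median of 0.16, led by Eef1b2 at 0.42 (SE 0.15). Of 29 initiation factors, 24 lay above 0, with a median of 0.19, and Eif3i had 0.31 (SE 0.13). Of 47 ribosome assembly genes, 39 lay above 0, with a median of 0.11, and Nop10, part of the particles that modify ribosomal RNA, had 0.41 (SE 0.14). The mean centred value of the assembly genes was 0.11 in low-dose replicate 2 and 0.33 in low-dose replicate 3. This is the reverse of the order of the ribosomal proteins, for which these libraries had 0.64 and 0.24. For the assembly genes high-dose replicate 2 lay between these libraries, at 0.17, and low-dose replicate 1 was at -0.22. Of 21 subunits of RNA polymerases I and III, 13 lay above 0, with a median of 0.06. Of 18 genes of the mTOR pathway, 5 lay above 0 and 13 below, with a median of -0.15; Mtor itself had -0.33 (SE 0.12) and Tsc1, an inhibitor of the pathway, -0.27 (SE 0.10). Of 9 Myc network genes tested, 4 lay above 0 and 5 below, with a median of -0.02. Mycl, with the smallest p of these, was barely detected, at 0.095 CPM in the low-dose tumours, against 0.83 CPM in the stress tumours. Myc itself, which the rule for named genes does not name here and which was chosen after its values were seen, averaged 145 CPM in the low-dose tumours, against 140.4 CPM in the stress tumours.

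Markers of other cells were read beside these values. Summed skeletal muscle markers were 128 to 217 CPM in the stress tumours, 101, 171 and 414 CPM in low-dose replicates 1, 2 and 3, 118 to 830.2 CPM in the high-dose tumours and 138 to 485 CPM in the control tumours. A single marker, Eno3, averaged 134 CPM in the stress and 126 CPM in the low-dose tumours, beside mean sums of 163 and 229 CPM. In the stress tumours the sums therefore show little of the other muscle markers. Eno3 reached at most 153.4 CPM in any library. The highest sums of the low-dose, control and high-dose tumours, 414, 485 and 830.2 CPM, thus came mostly from other markers. Of the 25 muscle markers, 21 lay above 0 in low dose over stress, with a median of 1.27. Summed macrophage markers were 1237 to 2005 CPM in the stress tumours, 1734 to 2765 CPM in the low-dose tumours, 1374 to 2429 CPM in the high-dose tumours and 1299 to 1448 CPM in the control tumours, and 6 of 11 lay above 0 in low dose over stress. Summed fibroblast markers were 19335, 11506 and 6118 CPM in low-dose replicates 1, 2 and 3, against 11198.5 to 14346 CPM in the stress tumours, with 7 of 10 above 0. Low-dose replicate 1, the low-dose library without the higher ribosomal values, had the most fibroblast and macrophage marker counts of the low-dose group. The control tumours had 6554 to 8688 CPM of fibroblast markers and ribosomal scores of -0.14 to -0.02. High-dose replicate 2, with the fewest fibroblast marker counts of all libraries, 5048 CPM, had a ribosomal score of -0.07. Of 10 lymphocyte markers tested, 0 lay above 0, and of 8 endothelial, 3 adipocyte and 4 red cell markers tested 2, 1 and 2 did. All 3 epithelial markers tested lay above 0, Sox9 at 0.62 (SE 0.17). The 8 others in the table stayed under 1 CPM and were not tested, so these 3 do not stand for the list. None of these markers passed the test by edgeR. With a muscle score as a covariate 76 of 76 members lay above 0 (48.8% of all genes); the part of the other cell types in the ribosomal values was not tested.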

How the data were processed

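RNA was measured in 12 tumour libraries, 3 in each of 4 groups taken from the labels. Per the labels, poly(A) RNA with an integrity number above 7 was made into strand-marked libraries and sequenced as read pairs. Per the submitters' processing notes, cutadapt 1.9, HISAT2 2.0.4, StringTie 1.3.4d, DESeq2 and edgeR were used with build GRCm38.p6; the annotation, counting options and filters are not given in the sources used here. The deposited estimated counts are per gene and unscaled, and 11.7% to 12.5% of the values in a library were not whole. The deposited FPKM values are fragments relative to gene length and sequencing depth, and the deposited TPM values have the same total in each library.

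The 76 members, the 21 gene lists and the rule for named genes were chosen with earlier results of these data known. The rule names the P-stalk genes and Rpsa, the 5 highest and 5 lowest members by TPM, the 5 largest and 5 smallest log2 fold changes of each comparison, the 5 members least like and the 5 most variable around the others, members with well-known roles, all core members with other names and paralogues, and at most 3 genes of each other list. Estimated counts were rounded, and filterByExpr with a minimum count of 10 retained 13453 of 17875 genes, the 76 members included. A single edgeR 4.0.16 quasi-likelihood model (R 4.3.3, TMM, robust, 4 groups) gave 2-sided p-values, adjusted by Benjamini-Hochberg across those genes, and 0.05 was the threshold. The script was first tested on simulated data. Log2 CPM used a prior count of 2. Alternatives were DESeq2 1.42.0, limma 3.58.1 with voom weights or on log2(TPM + 1), other scaling factors and filters, removal of trends with length and GC content, a muscle covariate, a replicate block, only the libraries compared, and leaving out each library. Names, chromosomes and promoters came from RefSeq tables of GRCm38.p6, transcript length and GC content from GENCODE M21. Results for some genes that the rule names are not reported here.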

Additional observations from a re-analysis of the deposited data

How the results depend on the processing

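Among the alternative values of single named genes, 10 turned sign and 11 came to pass the threshold, these 11 with DESeq2 or without low-dose replicate 1. The median log2 fold change of low dose over stress was 0.069 with the implied length trend removed and 0.137 on the log2(TPM + 1) scale, and that of high dose over low dose was -0.134 and -0.184. DESeq2 called 4 members higher in low dose over stress, against 0.409% of all genes. Leaving out each library in turn gave medians of 0.168 to 0.526 in low dose over stress and -0.557 to -0.181 in high dose over low dose, with 0 to 57 and 0 to 14 members called. The high counts came without low-dose replicate 1, against 4.66% of all genes called higher and 0.44% called lower in these 2 comparisons. The medians nearest to 0 came without low-dose replicate 2. The medians of stress over control were 0.004 to 0.063, and those of high dose over stress -0.044 to 0.006, above 0 only without stress replicate 3, with 0 called in both. On the log2(TPM + 1) scale the mean score was -0.021 in the stress tumours, 0.124 in the low-dose tumours, against 0.269 on the log2 CPM scale, and -0.054 in the high-dose tumours. The set took 5.12% of the estimated counts in the stress tumours, 6.41% in the low-dose tumours, 5.04% in the high-dose tumours and 5.00% in the control tumours.

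In low dose over stress, with the length trend removed and on the TPM scale, Rpl4 was -0.012 and -0.039, Rpl23a -0.13 and -0.012, and Rps26 -0.19 and -0.040. Rpl27 in high dose over low dose was 0.018 with the length trend removed. Leaving out each library gave -0.0079 to 0.30 for Rpl4 in low dose over stress, -0.022 to 0.27 for Rpl41 in stress over control and -0.26 to 0.48 for Rpl23 in high dose over low dose. None of these genes passed the test where it turned sign, and the cause was not tested. With the replicate block the medians were 0.360 in low dose over stress and -0.380 in high dose over low dose, with 0 called. Of 18 same-numbered pairs of libraries 4 correlated above 0.1, and 4 of 12 libraries correlated best with their own number, so the numbers were not taken as pairing.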
